A study of Arabidopsis thaliana with 11 samples.

Results

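GER2 (AT1G17890) encodes a GDP-L-fucose synthase of Arabidopsis thaliana, and its transcript was read by a single probe set, MRT3702_1637C.2_at, 1 of the 19371 plant probe sets on the arrays. All probe sets that the platform's annotation assigns to GER2 were taken, and 1 was found. Shoots were cut from the roots of plate-grown seedlings at an age of 14 days, kept in light for all 24 h. Independent lines carried 35S::CBF4 (lines 10 and 19) or, as homozygotes, 35S::AtNF-YB1 (lines 3 and 6), and the controls were wild type Col-0. The sample titles name the second CBF4 line 19, while the series text sets a further number beside it without saying what that number is. The 35S promoter of cauliflower mosaic virus is active in most tissues. Which cell types expressed the factors in these lines was not measured. Each line was represented by 2 arrays and wild type by 3, giving 4 CBF4, 4 AtNF-YB1 and 3 wild type arrays, each from a pool of about 24 seedlings.

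L-fucose is a sugar of plant cell walls and glycoproteins, found on xyloglucan, on the pectin rhamnogalacturonan II, on arabinogalactan proteins and on N-glycans. Plants make its activated form, GDP-L-fucose, from GDP-D-mannose: a dehydratase (MUR1 in shoots, GMD1 chiefly in roots) forms a keto sugar, which an epimerase-reductase then converts to GDP-L-fucose. GER1 is the characterised epimerase-reductase and GER2 its close homologue. A salvage enzyme, FKGP, activates free fucose, GFT1 carries GDP-L-fucose into the Golgi, and fucosyltransferases attach the sugar there. CBF4 is a transcription factor of the CBF/DREB1 group linked to drought and cold responses, and AtNF-YB1 belongs to the NF-Y complex, which recognises CCAAT boxes in promoters.

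GER2 was lower in all 4 transgenic lines than in wild type, by 27.1% in CBF4 line 10, 19.5% in CBF4 line 19, 18.9% in AtNF-YB1 line 3 and 18.7% in AtNF-YB1 line 6, once arrays were put on a common scale. The gene was chosen by these values: its difference passed the test in CBF4 against wild type. In AtNF-YB1 against wild type it did not pass, though its p-value was among the smallest of any named gene. The values against wild type are therefore given as a description, with no test.

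The deposited values are linear probe set intensities whose array medians ran from 9.23 to 22.7, so the raw GER2 values moved with the brightness of each array. GER2 gave 45.1 and 46.0 intensity units on the 2 arrays of CBF4 line 10, and 48.1 and 39.6 on those of line 19. The AtNF-YB1 arrays gave 56.1 and 29.0 units in line 3, and 54.7 and 45.0 in line 6. The wild type arrays gave 83.3, 42.7 and 74.6 units. On this raw scale the groups overlapped, since wild type replicate 2 lay below 6 of the 8 transgenic arrays. That array had a median of 12.8 units, against 22.7 and 19.5 for wild type replicates 1 and 3, and the lowest GER2 value, on AtNF-YB1 line 3 replicate 2, came from the array with the lowest median, 9.23. Every GER2 value was well above background, at 4.23 to 9.27 times the signal that 95% of the spike controls of its own array did not exceed.

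The rank of GER2 within each array does not depend on how bright the array is. GER2 stood at percentile 67.9 and 67.8 of the plant probe sets in CBF4 line 10, 69.2 and 70.2 in line 19, 69.8 and 69.9 in AtNF-YB1 line 3, and 70.3 and 69.5 in line 6. In wild type it stood at percentile 74.3, 72.6 and 74.1. All 8 transgenic arrays ranked it below all 3 wild type arrays, with no overlap. As the probe sets are ordered, the transgenic arrays had 5757 to 6238 plant probe sets at or above GER2, and the wild type arrays 4986 to 5303.

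Quantile normalization, which gives every array the same distribution of values, turned these ranks into levels. GER2 was 5.45 and 5.45 log2 in CBF4 line 10, 5.55 and 5.63 in line 19, 5.60 and 5.61 in AtNF-YB1 line 3, and 5.64 and 5.57 in line 6. Wild type arrays were at 5.95, 5.82 and 5.94 log2. The highest transgenic array stood 0.18 log2 below the lowest wild type array. Of all plant probe sets 0.444% (86 of 19371) had all 8 transgenic arrays below all 3 wild type arrays in this way, and 0.289% had all 8 above.

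The means were 5.52 ± 0.09 log2 in the CBF4 lines (SD, n = 4), 5.60 ± 0.03 in the AtNF-YB1 lines (SD, n = 4) and 5.90 ± 0.07 in wild type (SD, n = 3). The difference from wild type was −0.38 ± 0.04 log2 (SE of the fit) in the CBF4 lines, a level 23.4% below wild type, and −0.30 ± 0.04 in the AtNF-YB1 lines, 18.8% below. By line, it was −0.46 ± 0.05 in CBF4 line 10 and −0.31 ± 0.05 in CBF4 line 19, and −0.30 ± 0.05 in each of AtNF-YB1 lines 3 and 6. All these comparisons share the same 3 wild type arrays, so they are not independent of each other. In bulk shoots, fewer cells that express the gene and less transcript per cell cannot be told apart.

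**Figure D1:**
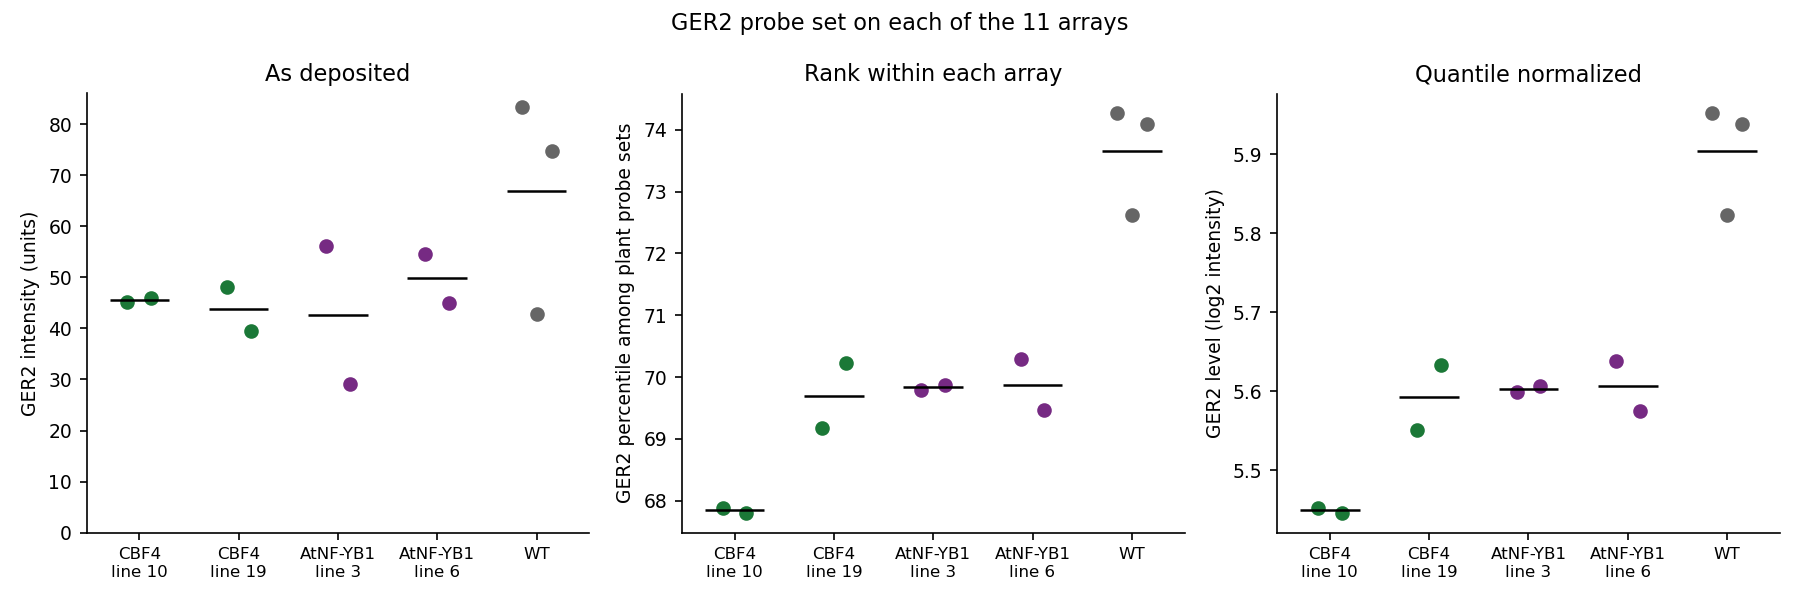
GER2 on each array as deposited intensity (left), as percentile among the plant probe sets of the same array (middle) and as quantile normalized log2 level (right); points are arrays in replicate order and lines are group means. The raw intensities of wild type (42.7 to 83.3) overlap the transgenic arrays (29.0 to 56.1), while the percentiles (67.8 to 70.3 in transgenic arrays, 72.6 to 74.3 in wild type) do not overlap.

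The order of the line means, from lowest to highest, was CBF4 line 10 (5.45 log2), CBF4 line 19 (5.59), AtNF-YB1 line 3 (5.60), AtNF-YB1 line 6 (5.61) and wild type (5.90). The transgenic arrays and the spread within lines also entered the values by which GER2 was chosen, so the differences among transgenic lines are a description too, with no test, and their intervals rest on that spread. The CBF4 lines were −0.08 ± 0.04 log2 from the AtNF-YB1 lines (SE, 4 arrays against 4), and their arrays, at 5.45 to 5.63 log2, overlapped the 5.57 to 5.64 of the AtNF-YB1 arrays. The 95% interval of this difference ran from −0.17 to 0.01 log2. With dim probe sets left out of the fit it ran from −0.30 to 0.13 log2. With arrays centred on their medians it ran from −0.48 to 0.20, and on unscaled values from −0.68 to 0.67. CBF4 line 10 was −0.14 ± 0.05 log2 from line 19 (SE). Between these lines 51.7% of all plant probe sets showed a larger difference in either direction. AtNF-YB1 line 3 was 0.00 ± 0.05 log2 from line 6, and their arrays overlapped.

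The size of the GER2 difference was modest, and its spread was small. Of the 45 probe sets that passed between the CBF4 lines and wild type (0.232% of all), GER2 had the second smallest difference, where the median size was 1.45 log2 and the largest 6.19 log2. Among the named genes at or above the median brightness that were lower in CBF4, on all 4 arrays and in both lines, 6 passed, and GER2 was the third of them by p-value, beside differences of −0.72 to −1.47 log2 for the others. Just inside the threshold was AT5G35735 at −0.98 ± 0.12 log2, and just outside was AT1G71970 at −0.59 ± 0.09. Of all plant probe sets 0.0516% passed with a lower level in CBF4. A difference larger than that of GER2 in either direction was shown by 18.6% of all plant probe sets, and by 7.61% of the 1248 whose mean level lay within 0.25 log2 of GER2.

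The replicate arrays of GER2 matched closely. The 2 arrays of a line differed by 0.0066 log2 in CBF4 line 10 and 0.083 in line 19, and by 0.0072 in AtNF-YB1 line 3 and 0.064 in line 6. The 3 wild type arrays spanned 0.13 log2. The residual SD of GER2 within lines was 0.051 log2, against a median of 0.235 log2 over these 1248 probe sets, of which 2 had a smaller one. AtNF-YB1 line 3 shows how far this depended on scaling: its 2 arrays differed 1.93-fold in raw GER2 intensity. The spread entered the test by which the gene was chosen, so its smallness is a description too.

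**Figure D2:**
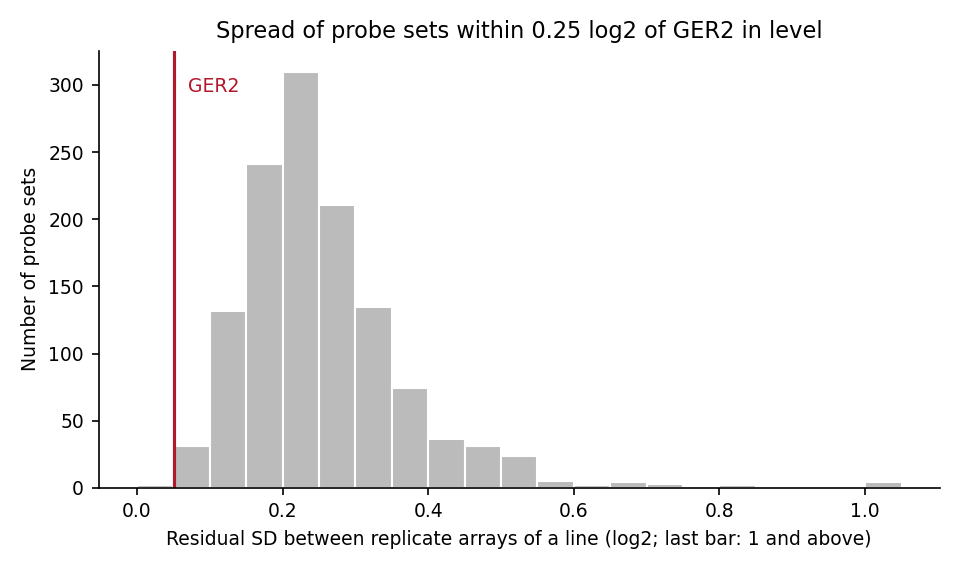
Residual SD between replicate arrays of a line (x axis, log2) for the 1248 probe sets whose mean level is within 0.25 log2 of GER2 (y axis, number of probe sets). The line marks GER2 at 0.051, far below the median of 0.235.

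The standard error rested on the set of probe sets in the fit. With every probe set included, the fit borrowed little information between them (0.636 prior degrees of freedom beside 6 residual ones) and the SE was 0.0407 log2. With the probe sets under the median brightness left out, the prior had 4.08 degrees of freedom and the SE of the same difference was 0.106. With arrays centred on their medians the SE was 0.164, and on unscaled values 0.306. Over the 24 settings tried, the reported one included, the difference from wild type was negative in all 24 for both constructs, from −0.53 to −0.36 log2 in the CBF4 lines and from −0.52 to −0.27 in the AtNF-YB1 lines, the largest on unscaled values. There the median of all plant probe sets was itself shifted, by −0.10 log2 in CBF4 and −0.17 in AtNF-YB1. Relative to that median GER2 was −0.43 and −0.36 log2. Not every setting could move the difference. The other floors, the filter for dim probe sets, pooled lines, the random block and the trended prior left it unchanged by construction. Without an AtNF-YB1 array the CBF4 difference stayed at −0.38, and without a CBF4 array the AtNF-YB1 difference stayed at −0.30. The same sign under these settings is therefore no check.

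**Figure D3:**
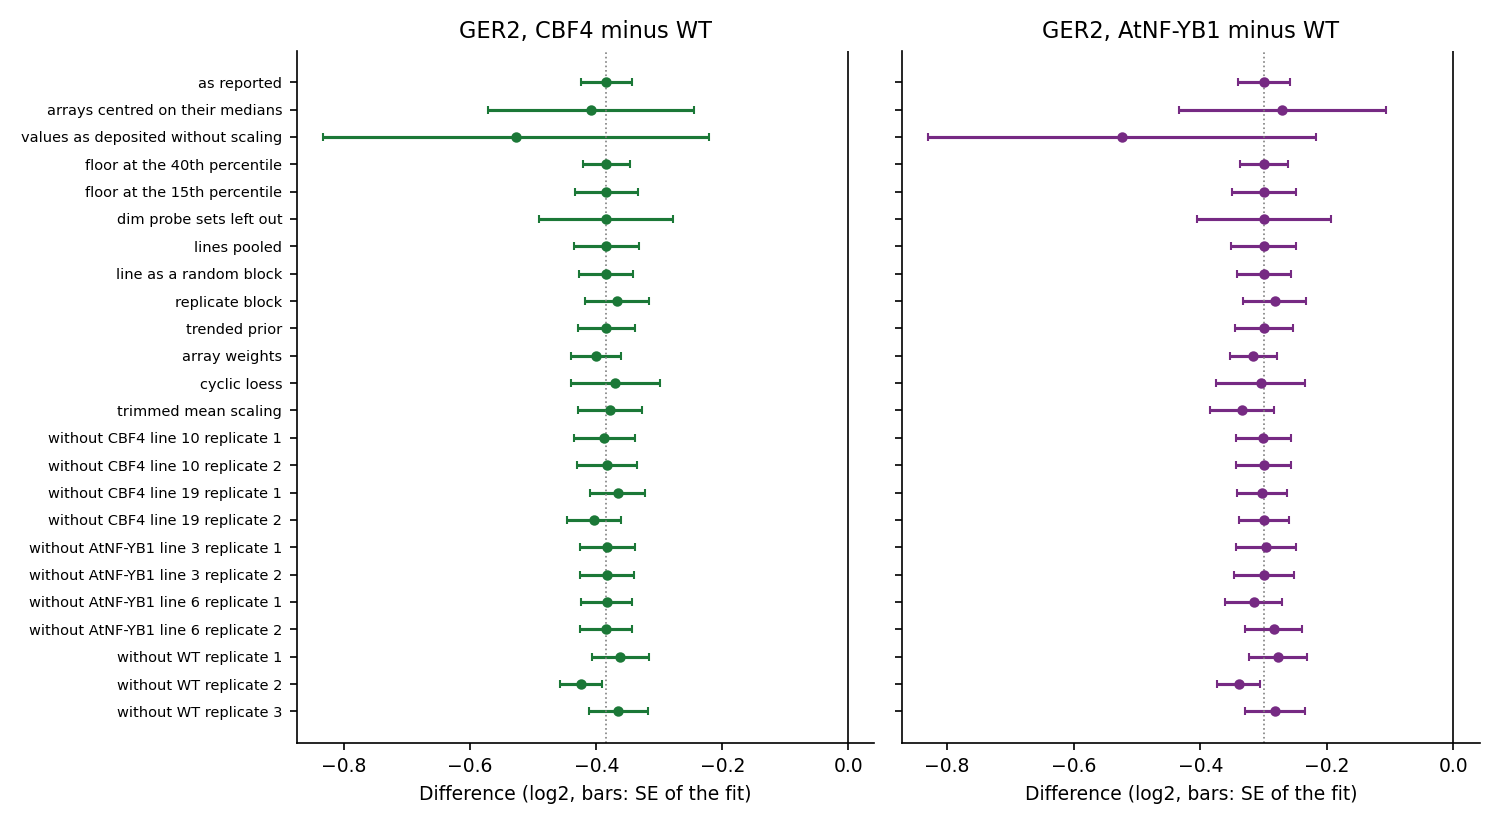
Difference of GER2 from wild type (x axis, log2, bars are the SE of the fit) in the CBF4 lines (left) and the AtNF-YB1 lines (right) under each processing setting and without each array. All points lie below 0, and the bars are widest on unscaled values, with an SE of 0.306.

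The absence of overlap held under 4 of 5 scalings. With arrays centred on their medians, scaled by their trimmed means or fitted by cyclic loess, 8 of 8 transgenic arrays again lay below the lowest wild type array, with gaps of 0.084, 0.23 and 0.17 log2. The share of plant probe sets with this pattern was 0.372%, 0.428% and 0.434% under these scalings. On unscaled values 2 of 8 lay below the lowest wild type array, where the share over all plant probe sets was 0.217%.

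Vector sequence marked 1 wild type array as different from the others. The NOS 3′ end probe set, a terminator used in plant vectors, gave 154 to 420 units with CBF4 and 285 to 705 with AtNF-YB1. Wild type replicates 1 and 2 read 0.50 and −0.44 units, but the array labelled wild type replicate 3 read 52.3. For the E9 3′ end the CBF4 arrays read 504 to 591 units and the AtNF-YB1 arrays 2.20 to 112. Wild type replicates 1 and 2 read 137 and 88.3 there, and the array labelled wild type replicate 3 read 1164. Its GER2 level of 5.94 log2 lay between those of the other wild type arrays. Without it the GER2 difference was −0.37 ± 0.05 log2 in the CBF4 lines and −0.28 ± 0.05 in the AtNF-YB1 lines (SE), and the number of probe sets that passed was 30 and 10, against 45 and 3 with it.

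Shoot markers were bright on every array, which does not by itself show that roots were absent. The 6 measured shoot markers of 8 listed, the light-harvesting genes LHB1B2 and LHCB4.2, the photosystem genes PSAE-1 and PSBW, the Calvin cycle gene SBPASE and the Rubisco activase gene RCA, gave 1000 to 2449 units and stood at or above percentile 99.7 on every array. Their summed normalized intensity was 10358 to 10768 with CBF4, 10383 to 10877 with AtNF-YB1 and 9946 to 10622 in wild type. Of 8 root markers 3 were measured, and none was at 0 throughout. PYK10, a root beta-glucosidase also known from seedling hypocotyls and cotyledons, was 7.58 to 8.69 log2 in CBF4, 8.11 to 8.69 in AtNF-YB1 and 7.66 to 8.88 in wild type. BGLU21 was 3.31 ± 0.31, 4.02 ± 0.39 and 4.06 ± 0.38, and the peroxidase gene PRX45 was 1.82 ± 1.03, 3.75 ± 0.61 and 3.71 ± 0.50 in the same order (SD, n = 4, 4 and 3). The summed root marker intensity was 202 to 434 with CBF4, 310 to 434 with AtNF-YB1 and 228 to 513 in wild type. BGLU21 and PRX45, like GER2, had lower means in the CBF4 lines. They were −0.75 ± 0.30 and −1.88 ± 0.59 log2 from wild type there (limma adjusted p = 0.772 and 0.578). At an unadjusted limma p below 0.05 were 2 of 3 root markers for CBF4 against wild type, where 6.14% of all plant probe sets were. For AtNF-YB1 against wild type it was 0 of 3 (4.02% of all), and for CBF4 against AtNF-YB1 2 of 3 (7.97% of all). PRX45 was not above background, judged by the spike controls as for GER2, on any CBF4 array. On CBF4 line 10 replicate 2 and line 19 replicate 1 it was at the floor of 0.93 log2, so its difference depended on the floor. BGLU21 was under the spike control level on the same arrays, at 8.64 and 10.39 units against 10.88 and 10.41. PYK10, the brightest of the 3, was −0.26 ± 0.33 log2 from wild type in the CBF4 lines. In the AtNF-YB1 lines BGLU21, PRX45 and PYK10 were at −0.04 ± 0.30, 0.05 ± 0.59 and 0.18 ± 0.33. Their part in the GER2 difference was not tested. The ratio of 3′ to 5′ GAPDH signal, a measure of RNA integrity, was 1.31 to 1.80 in CBF4, 1.37 to 2.09 in AtNF-YB1 and 1.43 to 1.67 in wild type.

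The remaining genes around fucose were mostly not readable under a name. Of 66 other loci listed for GDP-L-fucose supply, nucleotide sugar transport, fucose transfer and removal, GDP-mannose and ascorbate, UDP-sugar interconversion and xyloglucan synthesis, 6 were measured under a gene name. GER1, MUR1, GMD1, FKGP and GFT1 were not among them, so the steps on either side of GER2 were not read here. None of the 6 passed in any of the 3 comparisons of constructs by limma, in either direction, where 0.232%, 0.0155% and 0.31% of plant probe sets passed. At an unadjusted p below 0.05 there were 1, 0 and 1 of 6, against 6.14%, 4.02% and 7.97% of all plant probe sets. Their median difference from wild type was −0.08 log2 in the CBF4 lines and −0.01 in the AtNF-YB1 lines, where the median of all plant probe sets was 0.00.

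GDP-mannose, from which the fucose route starts, also feeds ascorbate synthesis, and 3 measured genes belong to the making of GDP-mannose or to the ascorbate branch. GME epimerises GDP-mannose to GDP-L-galactose on the way to ascorbate. It was at 9.26 to 9.50 log2 with CBF4, 9.29 to 9.52 with AtNF-YB1 and 9.30 to 9.52 in wild type, so the groups overlapped almost fully. Its difference from wild type was −0.04 ± 0.10 log2 in the CBF4 lines and 0.04 ± 0.10 in the AtNF-YB1 lines. PMM, the phosphomannomutase that feeds GDP-mannose synthesis, was at 8.29 to 8.50, 8.26 to 8.54 and 8.50 to 8.59 log2 in CBF4, AtNF-YB1 and wild type, and differed from wild type by −0.13 ± 0.07 and −0.08 ± 0.07. The highest PMM value in CBF4, 8.496 log2, lay just below the lowest in wild type, 8.503, and the AtNF-YB1 arrays overlapped those of wild type. VTC4, a phosphatase of the ascorbate branch, differed by −0.16 ± 0.11 and −0.01 ± 0.11 (SE). The limma adjusted p-values of these differences were 0.961 or more.

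Downstream, SPY, a nucleocytoplasmic protein O-fucosyltransferase that represses gibberellin signalling, was 0.18 ± 0.14 log2 from wild type in the CBF4 lines and 0.12 ± 0.14 in the AtNF-YB1 lines (limma adjusted p = 1 for both). ESMD1, a putative O-fucosyltransferase linked to cell adhesion, was at the floor of 0.93 log2 on all AtNF-YB1 and wild type arrays and reached 1.58 to 2.07 log2 on 3 of 4 CBF4 arrays. Its signal there, 3.17 to 3.67 units, lay under the level that 95% of the spike controls did not exceed, 4.63 to 11.6 units over the arrays, so it was not above background on any array. CSLC4, a glucan synthase for the backbone of xyloglucan, the main fucosylated hemicellulose, was 5.65 ± 0.24 log2 in CBF4, 5.94 ± 0.27 in AtNF-YB1 and 6.03 ± 0.31 in wild type (SD, n = 4, 4 and 3). Its difference of −0.38 ± 0.20 log2 in the CBF4 lines had the size of that of GER2 with a wider error (limma adjusted p = 0.947), and in the AtNF-YB1 lines it was −0.09 ± 0.20.

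**Figure D4:**
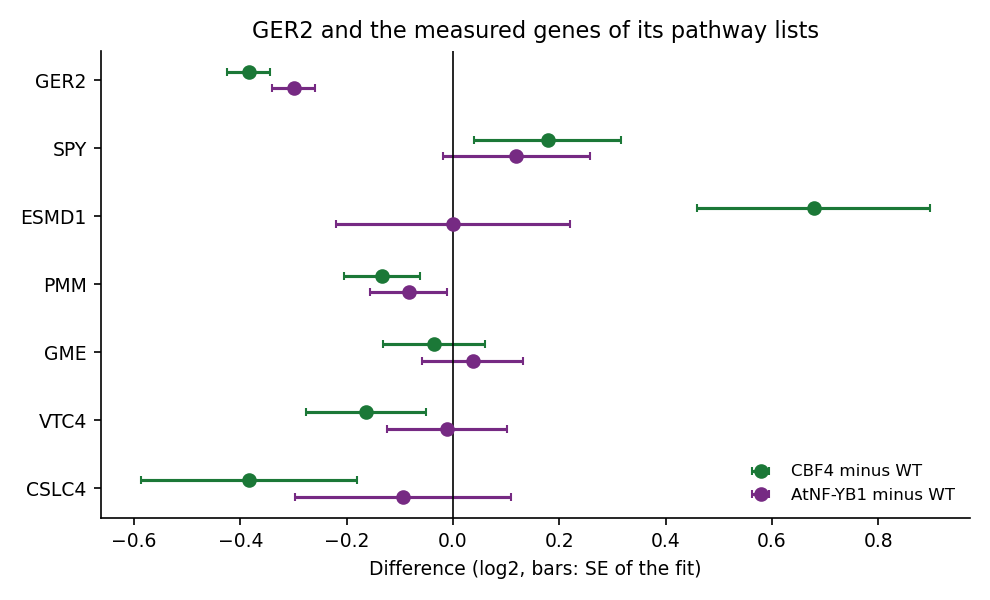
Difference from wild type (x axis, log2, bars are the SE of the fit) of GER2 and the 6 other measured genes of the pathway lists in the CBF4 and AtNF-YB1 lines. GER2 has the shortest bars (SE 0.04) and CSLC4 a like difference in the CBF4 lines, −0.38, with an SE of 0.20; the value of ESMD1 comes from signals not above background.

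None of the nearest measured genes on the chromosome passed in a comparison of constructs. Of all plant probe sets 0.232% passed for CBF4 against wild type, 0.0155% for AtNF-YB1 against wild type and 0.31% for CBF4 against AtNF-YB1. With such low shares, the absence of a call among so few genes says little about this stretch. On one side of GER2, AT1G17860, AT1G17830 and AT1G17820, which lie 5, 10 and 11 genes away in RefSeq order, differed from wild type by 0.10 ± 0.32, −0.33 ± 0.26 and 0.14 ± 0.20 log2 in the CBF4 lines and by 0.53 ± 0.32, −0.55 ± 0.26 and 0.07 ± 0.20 in the AtNF-YB1 lines. On the other side, AT1G17940 and AT1G17960, 6 and 8 genes away, differed by 0.07 ± 0.25 and −0.17 ± 0.46 in the CBF4 lines and by 0.19 ± 0.25 and 0.09 ± 0.46 in the AtNF-YB1 lines (SE). AT1G17910, 2 genes away, was at the floor on every array.

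Genes with a like pattern were ranked by Pearson's r with GER2 over the 11 arrays, among 5153 other probe sets with a gene name at or above the median brightness. The arrays share the group structure, so r describes a pattern and was not tested. The median r was 0.04, and 8 probe sets were above 0.8 and 7 below −0.8. The 5 highest were AT3G10260 (r = 0.87), AT3G28480 (r = 0.85), LHCB4.3 (r = 0.84), AT2G24360 (r = 0.82) and AT5G17900 (r = 0.82). Over the 8 transgenic arrays alone, r was 0.87, 0.84, 0.65, 0.27 and 0.61 for them. It was about as high for AT3G10260 and AT3G28480, lower for LHCB4.3 and AT5G17900, and lowest for AT2G24360. The 8 arrays are among the 11 by which these genes were picked, so these values are a description too.

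LHCB4.3, a light-harvesting protein of photosystem II, was 9.22 log2 in the CBF4 lines, 9.30 in the AtNF-YB1 lines and 9.50 in wild type. Its difference from wild type was −0.28 ± 0.06 in CBF4 and −0.20 ± 0.06 in AtNF-YB1 (SE). AT3G10260 differed by −0.44 ± 0.10 and −0.17 ± 0.10, and AT3G28480 by −0.38 ± 0.10 and −0.18 ± 0.10. AT2G24360 differed by −0.23 ± 0.07 and −0.19 ± 0.07, and AT5G17900 by −0.31 ± 0.07 and −0.27 ± 0.07. These genes were picked by their correlation with GER2 over the same arrays, so their differences from wild type are a description, with no test. The 3 lowest were AT4G31140 (r = −0.90), AT2G40570 (r = −0.88) and AT3G62000 (r = −0.84). Among the transgenic arrays alone, r was −0.59, 0.04 and −0.60 for them. They were 0.81 ± 0.11, 0.79 ± 0.11 and 0.47 ± 0.09 log2 above wild type in the CBF4 lines. In the AtNF-YB1 lines they were 0.50 ± 0.11, 0.74 ± 0.11 and 0.33 ± 0.09 above it. These differences are a description for the same reason. The list at the top was not stable: with arrays centred on their medians 3 of the 5 were again among the 5 highest, and without the array labelled wild type replicate 3 it was 1 of 5, AT3G28480.

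**Figure D5:**
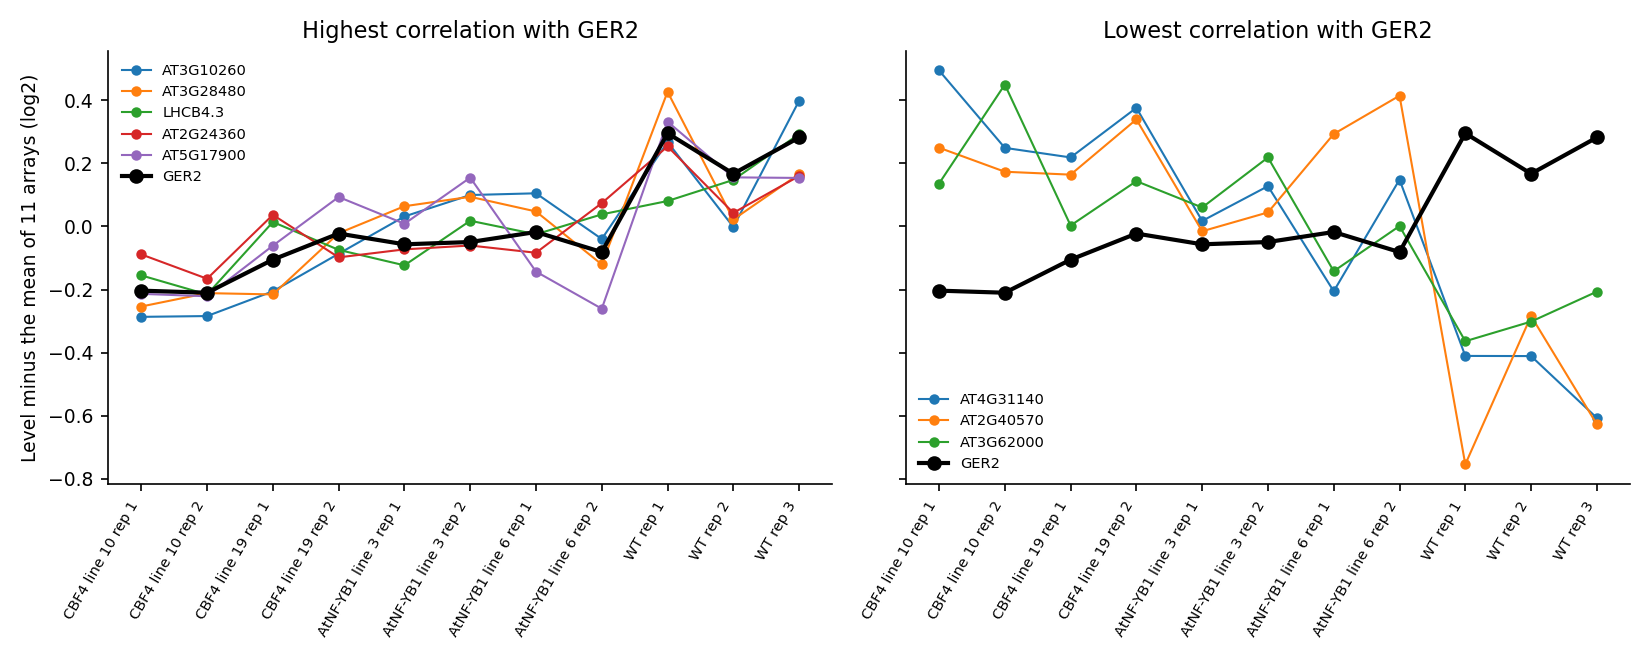
Normalized level minus the mean of the 11 arrays (y axis, log2) on each array (x axis) for GER2 in black and for the 5 genes with the highest (left) and the 3 with the lowest (right) correlation with it. GER2 is highest on the 3 wild type arrays and lowest on the 2 arrays of CBF4 line 10.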

How the data were processed

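Transcript levels were measured on 11 custom Affymetrix arrays. The authors deposited a single table of 19658 probe sets as linear intensity values, 13.4% of the plant values below 0; how they were summarized, background-corrected and scaled is not stated in the labels. The series text calls the transgenic replicates biological and names no separate growths, so p-values cover only the spread between pools. The 284 control probe sets were left out. The remaining 19374, of which 3 read vector 3′ ends, were quantile normalized, raised to the 20th percentile (1.90 units) and log2 transformed. A single limma fit (3.58.1, R 4.3.3; lmFit and eBayes, two-sided) of 5 line groups gave each difference, its SE and a Benjamini-Hochberg adjusted p over all 19374, with a threshold of 0.05; a construct is the mean of its 2 lines. The fit was tested on simulated data. No array pair was identical. Gene names came from the platform annotation (11598 plant probe sets) and were matched by gene ID to RefSeq (11547). It names no genome build and no probe sequence was used, so coordinates, sequences and cross-hybridization with GER1 are not reported. Lists hold 83 loci, 1 probe set per gene (the highest mean). No locus carried the Rossmann-fold word in the RefSeq synonyms, so that family was not read. Named were GER2, all measured list members, the 3 nearest measured genes on each side, and the 5 highest and 3 lowest correlations. The gene and the lists were chosen with earlier results of these data known. The number of arrays limits the precision. Alternatives changed the scaling, floor, filter, design, prior and arrays; figures used matplotlib 3.10.9.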

Additional observations from a re-analysis of the deposited data

Results flagged for a closer look

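The array labelled wild type replicate 3 carried vector signal above that of the other controls: 1164 intensity units on the E9 3′ end probe set and 52.3 on the NOS 3′ end probe set, against at most 137 and 0.50 units on wild type replicates 1 and 2. Among 21 groups of 4 or 8 arrays checked for GER2 and the 6 other pathway genes, 3 held an array far from the rest, all within the 4 AtNF-YB1 arrays, where about 1 group in 20 is found by chance. PMM was at 8.26 log2 on AtNF-YB1 line 6 replicate 1, below the other 3 arrays. GME was at 9.29 log2 on AtNF-YB1 line 3 replicate 1, also below the other 3. VTC4 was at 7.45 log2 on AtNF-YB1 line 6 replicate 2, above the other 3. GER2 itself had no such array in any of its 3 groups.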

How the results depend on the processing

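The GER2 differences from wild type moved by less than the largest SD between arrays under 22 of 23 alternatives for each construct. Among these 22, the other floors, the filter, pooled lines, the random block and the trended prior could not move them at all. On unscaled values they were −0.53 log2 (CBF4) and −0.52 (AtNF-YB1). Leaving out 1 array gave −0.42 to −0.36 log2 for CBF4 and −0.34 to −0.28 for AtNF-YB1. The difference of CBF4 from AtNF-YB1 ran from −0.14 to −0.0038 log2 over 23 alternatives. CBF4 line 10 minus line 19 changed sign on unscaled values (0.062). AtNF-YB1 line 3 minus line 6, near 0, changed sign with median centring (0.064) and cyclic loess (0.00030), ran from −0.036 to 0.028 without 1 array, and was −0.30 on unscaled values. Median centring shifted the median of all plant probe sets between CBF4 and AtNF-YB1 by −0.10 log2. The cause of these changes was not tested.

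Counts of calls were unstable in the comparisons of CBF4 with wild type (45), AtNF-YB1 with wild type (3) and CBF4 with AtNF-YB1 (60). On unscaled values they were 5, 0 and 9, and with line as a random block 194, 19 and 142. With the replicate number as a block they were 13, 0 and 21. GER2 was then −0.37 and −0.28 log2 from wild type in CBF4 and AtNF-YB1. With group means taken out, same-numbered arrays of different groups correlated at −0.25 to 0.17, and 5 of 20 pairs were above 0.1. In a line of 2 arrays the deviations mirror each other, so these pairs are not independent. Whether the numbers pair the samples cannot be told from them. The AtNF-YB1 count was 0 with median centring, cyclic loess or dim probe sets left out, 1 with lines pooled or trimmed mean scaling, and 5 with a floor at the 40th percentile or array weights. The count of CBF4 against AtNF-YB1 was 37 with median centring. Leaving out 1 array moved the CBF4 count to 25 (wild type replicate 2), 27 (wild type replicate 1) and, without a CBF4 array, 89 to 130 (line 10 replicate 2). The AtNF-YB1 count ran from 2 to 165 (line 3 replicate 1): 54 to 165 without an AtNF-YB1 array, 10 without either array of CBF4 line 10, and 5, 6 and 10 without wild type replicates 1, 2 and 3. The count between the constructs ran from 44 (wild type replicate 2) to 240 (AtNF-YB1 line 3 replicate 1), and was 96 or more without any 1 transgenic array. Of the 6 other pathway genes 0 passed in any setting, except ESMD1 between CBF4 and AtNF-YB1 without CBF4 line 10 replicate 2 (0 to 1 over the arrays left out, limma adjusted p = 0.0414), where its signal was not above background. A floor at the 5th percentile, −3.67 units, has no log and was replaced by the 15th. Cyclic loess, trimmed mean scaling and that floor were chosen after seeing the data.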
